A study of Danio rerio with 18 samples.

Results

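The baseline transcriptome described here is that of untreated wild-type zebrafish larvae at 5 days post fertilization (dpf). It was measured by RNA-Seq in 6 samples, which are all the samples labelled with wild-type genotype and control treatment among the 18 of the series. The other samples are 6 of akr1a1a-/- larvae and 6 of wild-type larvae that were given acrolein (ACR), a reactive aldehyde that the enzyme Akr1a1a helps to remove. All groups were collected at 120 hours post fertilization (hpf). Wild type means akr1a1a+/+ in the Tg(fli1:EGFP) reporter line, in which the fli1 promoter drives green fluorescent protein in blood vessel endothelium, so the untreated larvae carry this transgene too. By the labels, larvae of all groups grew in E3 medium with PTU, an inhibitor of melanin formation. Each sample is a pool of larvae of 1 clutch, and clutches are numbered 1 to 6 as in the sample titles. Whether a clutch shares parents with another was not stated in the sources used here. The run names in the labels place all 6 libraries on the same sequencing lane. No differences between groups are tested below, every value of the untreated larvae is a description of these 6 pools, and the other groups are used only at the end, beside the spread of single genes.

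At this age a zebrafish larva has hatched, swims freely and is about to feed for the first time. Most of its mass is trunk muscle, wrapped in an epidermis that also carries ionocytes. The eye already sees, the heart beats, and liver, exocrine pancreas and intestine have formed but have met little food. A whole-larva RNA pool mixes all of these tissues in proportion to their RNA. Fewer cells of a type and less RNA per cell therefore cannot be told apart in any value below.

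The 6 libraries were alike in depth, with 19878464 to 20174607 estimated counts, and 3 counts correspond to 0.149 to 0.151 CPM, counts per 1000000 counts. Levels are given in TPM, transcript abundances that are scaled by gene length and add up to 1000000 in each library. Means are given ± SD over the 6 clutches (n = 6) throughout. The spread between clutches was measured on normalized counts, that is counts scaled by TMM, a scaling that makes most genes equal between libraries. Its factors lay between 0.987 and 1.01. The log2 difference of a clutch to the other 5 was taken over genes with a mean of at least 100 normalized counts. The SD of these differences was 0.26 in clutch 6 and 0.24 in clutch 2. It lay between 0.168 and 0.221 in the other clutches. No library was a copy of another, as between 35 and 76 of 15829 genes held the same count in a given pair.

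Gene expression in these larvae spanned from single reads to genes that alone held up to 2.65% of TPM in a clutch. Of 32520 gene IDs, 20560 were at 1 TPM or more in all 6 clutches, 8704 at 10 TPM or more, 841 at 100 TPM or more and 145 at 1000 TPM or more. At the other end, 3155 genes had a count of 0 in every clutch and 6405 had no more than 3 counts in any. The number of genes at 1 TPM or more ranged only from 22119 to 22353 between clutches. A few genes held most of the RNA. The 10 most abundant genes of a clutch took up 16.5 ± 0.57% of TPM, the 100 most abundant 42.1 ± 0.65% and the 1000 most abundant 70.5 ± 0.47%. On average 162.5 ± 6.25 genes made up 50% of TPM. Without the length scaling, the 10 genes with the highest counts held 10.8 ± 0.35% of counts and 639 ± 23.9 genes made up 50%. IDs without a symbol held 2.1% to 2.4% of TPM.

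**Figure D1:**
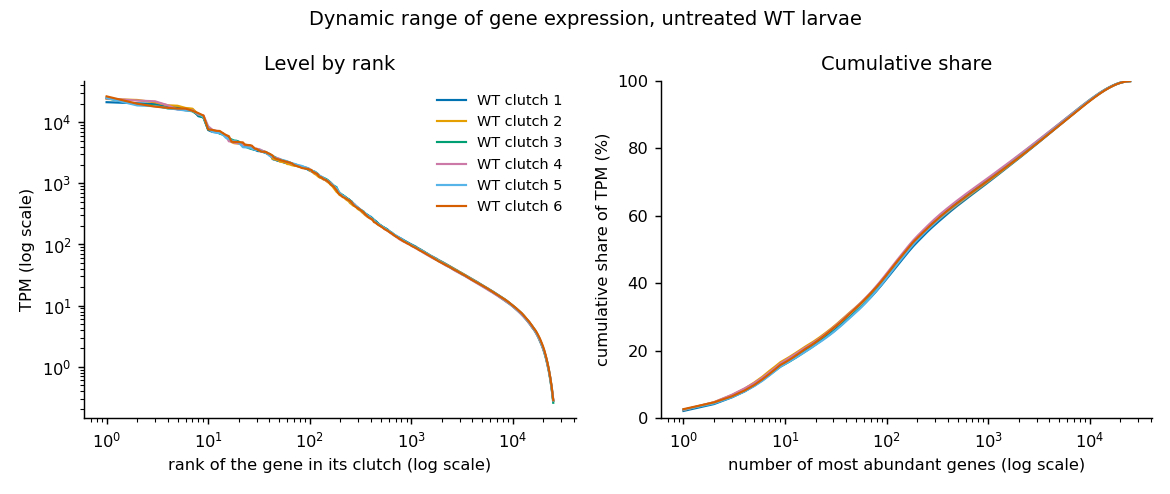
Left, TPM of each gene (log scale) against its rank within the clutch (log scale); right, the share of TPM held by a growing number of most abundant genes. Each line is 1 of the 6 untreated WT clutches, and the lines lie almost on each other, with the 100 most abundant genes at 42.1 ± 0.65% of TPM.

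Muscle and mitochondria led the list of abundant genes. Of the 30 genes with the highest mean TPM, 10 belonged to the mitochondrial genome list and 9 to the fast skeletal muscle list. The mitochondrial list was built from symbols, so it leaves out any gene without a symbol. The most abundant nuclear gene was actc1b, an actin of the contractile filaments, with 21095 ± 2207 TPM and single clutches between 18827 and 24466 TPM. Next came the parvalbumins pvalb1 (19584 ± 1812 TPM) and pvalb2 (17140 ± 1510 TPM), calcium buffers that speed the relaxation of fast fibres. The tropomyosin gene tpma stood at 12525 ± 516 TPM and the fast troponin T gene TNNT3 at 5601 ± 334 TPM. The myosin light chain genes MYL1 (7618 ± 638 TPM) and MYL11 (6843 ± 540 TPM) stood beside them. The creatine kinases ckmb (4142 ± 226 TPM) and ckma (3675 ± 299 TPM), which buffer ATP, the calcium pump atp2a1 (3884 ± 315 TPM) and the myosin heavy chain myhz1.1 (3691 ± 321 TPM) completed the muscle genes among the 30. MYL1 and MYL11 are not in the fast muscle list, which was written with zebrafish symbols, so sums over that list leave them out. By counts, which favor long transcripts, myhz1.1 ranked 3 among all genes.

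Among mitochondrial genes, mt-atp8 had the highest TPM of all (24055 ± 1857, between 21282 and 26515 in single clutches) but ranked only 197th by counts. It is a short gene that overlaps MT-ATP6, a subunit of the same ATP synthase, so its share of the reads is uncertain. The cytochrome c oxidase subunits MT-CO1 (17416 ± 990 TPM), MT-CO3 (16293 ± 553 TPM) and MT-CO2 (16050 ± 732 TPM) and MT-ATP6 (13236 ± 732 TPM) followed. The other members among the 30 were MT-CYB, mt-nd4l, MT-ND1, MT-ND3 and MT-ND2, with means between 3725 TPM for MT-ND2 and 6682 TPM for MT-CYB. MT-CO1 ranked first of all genes by mean count before normalization. By mean normalized counts it was almost level with actc1b, at 360066 against 360094.

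The remaining abundant genes came from several sources. The translation elongation factor gene eef1a1l1 was at 7424 ± 383 TPM, krt4, a keratin of the surface epidermis, at 6832 ± 326 TPM, and actb2, the cytoskeletal actin, at 4109 ± 186 TPM. Apolipoproteins of the liver and yolk layer, apoa2 (4887 ± 425 TPM) and apoa1b (4550 ± 436 TPM), stood next to SLC25A5, the mitochondrial ADP/ATP carrier (4772 ± 179 TPM). The nucleoside diphosphate kinase gene nme2b.2 closed the 30 with 3537 ± 428 TPM. For 2 of the 30, which carry only a clone name or an ID, no role is given here. They are si:dkey-151g10.6 (4866 ± 520 TPM) and ENSDARG00000080337 (4293 ± 449 TPM). In all 30 genes the clutches were close, with a CV (SD over mean of normalized counts) of at most 12.5%.

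**Figure D2:**
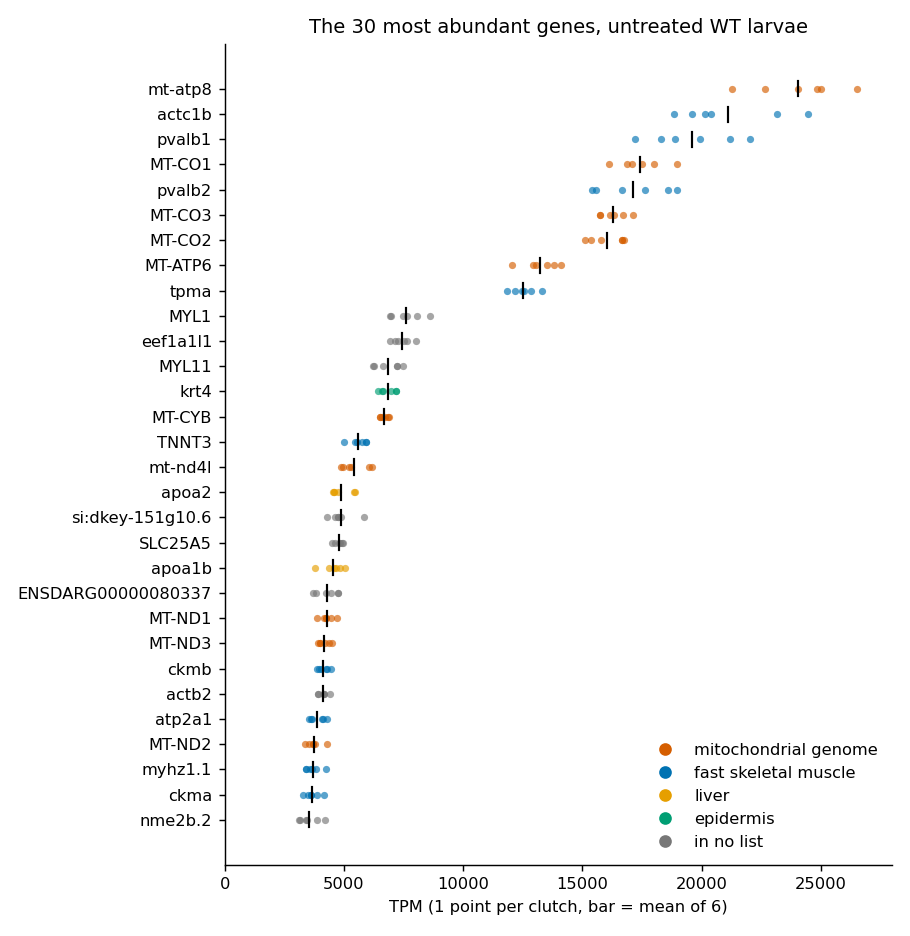
TPM (horizontal axis) of the 30 genes with the highest mean over the 6 untreated WT clutches; points are single clutches and bars are means. Mitochondrial genome and fast skeletal muscle genes fill the top 9 places, down to tpma at 12525 ± 516 TPM.

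TPM were then summed over 41 gene lists of tissues and pathways. A sum depends on which and how many genes its list holds, so it does not measure the share of a tissue in the RNA. The largest sums were of the cytosolic ribosomal proteins (13.2 ± 0.36% of TPM over 80 genes), the mitochondrial genome (12 ± 0.51% over 13 genes) and fast skeletal muscle (10.3 ± 0.64% over 22 genes). Without the length scaling this order was reversed. Fast muscle held 9.16% of counts, the mitochondrial genome 5.36% and the ribosomal proteins 5.04%. Ribosomal protein genes were evenly high. Their top members RPS2 (3446 ± 151 TPM), RPL35 (3392 ± 165 TPM) and RPL6 (3252 ± 163 TPM) held only 7.62% of the list, while actc1b, pvalb1 and pvalb2 held 55.9% of the muscle list. Of the 100 most abundant genes, 43 encoded ribosomal proteins, 13 were in the mitochondrial genome list and 11 in the fast muscle list. Nuclear genes of the respiratory chain added 2.3 ± 0.11% of TPM over 96 genes, led by NDUFB1 (1271 ± 76.8 TPM), atp5mc3b (1190 ± 44.7 TPM) and ATP5F1B (994 ± 54.9 TPM). The 54 proteasome genes summed to 2070 ± 150 TPM, with PSMB7, PSMB2 and PSMB4 in front at 101 to 139 TPM.

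**Figure D3:**
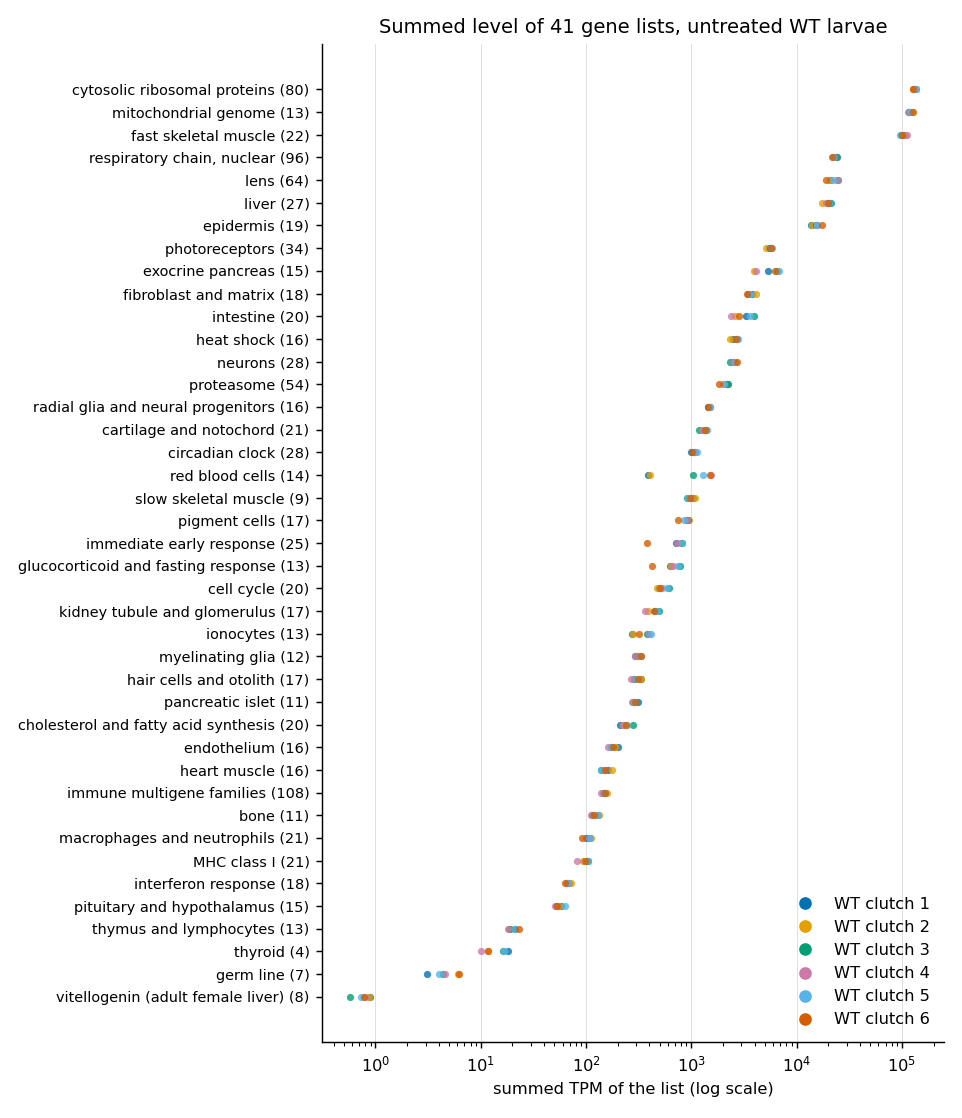
Summed TPM (log scale) of each gene list, with the number of its genes in brackets; each point is 1 of the 6 untreated WT clutches. Points of a list lie close together for most lists and spread for red blood cells, from 385 to 1539 TPM, and the immediate early response, where clutch 6 lies apart at 378 TPM.

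The fast muscle list had a far larger sum than the other muscle lists. The fast list summed to 96366 to 113192 TPM, against 910 to 1080 TPM for the slow list and 139 to 176 TPM for the heart list. Slow muscle was led by myl13 (389 ± 30.5 TPM), a slow myosin light chain, smyhc1 (240 ± 21.3 TPM), a slow myosin heavy chain, and TNNC1 (184 ± 10.8 TPM), the slow and cardiac troponin C. All 22 fast and all 9 slow genes were at 1 TPM or more in every clutch. The heart was seen through MYL7, a light chain of the myocardium (39.4 ± 1.81 TPM), myl4, an atrial light chain in mammals (24.8 ± 9.73 TPM), and MYH6, an atrial myosin heavy chain (22.7 ± 2.06 TPM). The natriuretic peptide genes nppa (6.85 ± 0.822 TPM) and nppb (1.77 ± 0.718 TPM) were low.

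Skin and skeleton gave clear signals. The epidermis list summed to 15267 ± 1294 TPM and all 19 of its genes were detected at 1 TPM or more in every clutch. After krt4 came the keratins cyt1 (1955 ± 448 TPM) and krt91 (1814 ± 311 TPM). Matrix genes of fibroblasts summed to 3627 ± 257 TPM, with col1a1a (959 ± 118 TPM) and COL1A1 (448 ± 24.3 TPM), chains of type I collagen, and SPARC (924 ± 60.3 TPM), a collagen-binding matrix protein. Cartilage and notochord genes summed to 1320 ± 76.8 TPM, led by a COL2A1 gene (268 ± 23.1 TPM) and COL11A1 (126 ± 9.02 TPM), collagens of cartilage. A second COL2A1 gene was at 123 ± 4.57 TPM. Bone, which has only begun to form at this age, was at 123 ± 9.49 TPM in sum. COL10A1, a collagen of forming bone in fish (62 ± 6.57 TPM), ALPL, the phosphatase of mineralization (21.2 ± 2.01 TPM), and PHEX, a peptidase of bone cells (17.9 ± 2.12 TPM), made up 82.1% of that sum.

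The liver list had the largest sum of the visceral lists. Its 27 genes summed to 19721 ± 1322 TPM, of which apoa2, apoa1b and apoa1a (3098 ± 281 TPM) held 63.6%. The liver fatty acid binding protein gene fabp10a stood at 2297 ± 347 TPM. The exocrine pancreas list reached 5481 ± 1234 TPM, led by the trypsinogens prss59.2 (1395 ± 276 TPM), prss1 (1153 ± 269 TPM) and prss59.1 (788 ± 203 TPM). Intestinal genes summed to 3119 ± 597 TPM. In front were chia.2, a chitinase (653 ± 165 TPM), FABP2, the fatty acid binding protein of enterocytes (616 ± 127 TPM), and apoa4b.1, an apolipoprotein of lipid uptake (470 ± 74.2 TPM). Kidney genes summed to 436 ± 51.6 TPM, led by the sodium pump subunit atp1a1a.4 (168 ± 37.9 TPM), the scaffold pdzk1 (77.8 ± 14 TPM) and the phosphate transporter SLC20A1 (58 ± 4.69 TPM). Ionocytes of the skin, which take up ions and release ammonia, gave 345 ± 62.7 TPM. RHCG, an ammonia channel (143 ± 61.7 TPM), atp1a1a.2 (41.9 ± 3.08 TPM) and ceacam1 (36.4 ± 8.01 TPM) led that list.

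The eye was strongly represented. The lens list summed to 22003 ± 2310 TPM over 64 genes, more than the liver list. By counts the lens list held less, 1.27% against 1.59%. The lens sum was spread over many crystallins, the refractive proteins of the lens fibres, with CRYBB1 (1805 ± 140 TPM), cryba1l1 (1263 ± 122 TPM) and CRYGN (1197 ± 100 TPM) holding 19.4% of it. Photoreceptor genes summed to 5565 ± 251 TPM. Among them, GNGT2, a cone transducin subunit, stood at 666 ± 71.4 TPM and the green cone opsin gene opn1mw1 at 572 ± 68.7 TPM. The neuron list of 28 genes summed to 2536 ± 130 TPM, led by sncb, a synuclein (526 ± 38.3 TPM), STMN1, a microtubule regulator (326 ± 27.8 TPM), and SNAP25, a synaptic fusion protein (203 ± 10.1 TPM). Radial glia and progenitor genes summed to 1472 ± 32.8 TPM, with SLC1A2, a glutamate transporter (386 ± 37.7 TPM), FABP7 (345 ± 22.7 TPM) and GLUL, glutamine synthetase (268 ± 19.5 TPM). Myelin was present, with mbpb (113 ± 7.57 TPM) and mbpa (93 ± 8.58 TPM), the myelin basic proteins, and mag (23.4 ± 4.61 TPM). Hair cell and otolith genes summed to 306 ± 26 TPM, led by s100t, stm, a matrix protein of the otolith, and pvalb9, at 52.7 to 81.3 TPM.

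The lists of blood, vessel, pigment and immune cells each had smaller sums than the exocrine pancreas and intestine lists. The red blood cell list summed to 1033 ± 525 TPM, with the embryonic alpha globins hbae3 (610 ± 332 TPM), hbae1.3 (209 ± 110 TPM) and hbae1.1 (108 ± 62.7 TPM) as its highest members. This list lacks globins that carry other symbols, among them HBE1 ENSDARG00000113599 (803 ± 411 TPM) and hbae1.2 (421 ± 225 TPM). All 16 hemoglobin genes together summed to 2712 ± 1353 TPM. In clutches 4 and 6 their sum (4048 and 3871 TPM) was larger than that of the intestine list (2393 and 2864 TPM). In the other clutches it was smaller. Endothelial genes summed to 180 ± 13.9 TPM, with FLI1 (92.1 ± 10.1 TPM), whose promoter drives the reporter of this line, plvapb (19.9 ± 1.19 TPM) and clec14a (10.1 ± 1.1 TPM). Pigment cell genes stood at 884 ± 73.4 TPM, measured with PTU in the medium of all groups. They were led by TYRP1 (233 ± 27.1 TPM) and DCT (142 ± 11.8 TPM), enzymes of melanin synthesis, and pmela, the melanosome matrix protein (180 ± 17.6 TPM). Macrophage and neutrophil genes summed to 104 ± 7.3 TPM, with lyz, a lysozyme (34.9 ± 3.65 TPM), npsn, a neutrophil protease (18.5 ± 3.57 TPM), and LCP1, an actin bundler of leukocytes (8.46 ± 0.806 TPM). Thymus and lymphocyte genes were at 20.2 ± 1.81 TPM in sum, and only 6 of 13 reached 1 TPM in every clutch. ccl25a, a thymic chemokine, was at 6.67 ± 0.996 TPM, RAG1, the recombinase, at 2.48 ± 0.225 TPM and IKZF1, a lymphoid transcription factor, at 2.12 ± 0.27 TPM. Of the interferon response list, 6 of 18 genes reached 1 TPM in every clutch, among them isg20 (18 ± 1.9 TPM) and trim25 (9.21 ± 0.861 TPM). The 21 class I MHC genes summed to 97.4 ± 8.04 TPM, led by mhc1zea (28.4 ± 12.6 TPM), mhc1zba (22.7 ± 7.42 TPM) and mhc1zda (17.3 ± 1.77 TPM). Of 108 genes of immune multigene families, such as ftr83, ftr82 and ftr67, only 19 reached 1 TPM in every clutch.

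The pituitary, thyroid and germ line lists had sums near the lower end of the 41 lists, while the islet list lay higher. Islet genes summed to 288 ± 12.5 TPM, with NEUROD1 (64.5 ± 3.71 TPM) and PAX6 (54.9 ± 4.95 TPM), transcription factors shared with neurons, and ins, the insulin gene (61.9 ± 6.22 TPM). Pituitary and hypothalamic hormones summed to 55.3 ± 4.46 TPM, led by gh1, growth hormone (9.34 ± 3.46 TPM), oxt, oxytocin (8.73 ± 1.41 TPM), and CRH, the stress axis releasing hormone (7.77 ± 2.01 TPM). The thyroid showed duox, an oxidase (6.85 ± 1.14 TPM), TG, thyroglobulin (6.46 ± 2.55 TPM), and SLC5A5, the iodide transporter (0.605 ± 0.155 TPM). Germ line genes summed to 4.74 ± 1.21 TPM, with PIWIL1, NANOS3 and DDX4 at 0.852 to 1.47 TPM. The vitellogenins, yolk proteins of the adult female liver, summed to 0.772 ± 0.112 TPM. None of the 8 reached 1 TPM, vtg1, vtg7 and vtg3 led with at most 0.235 TPM, and vtg4 had a count of 0 in all 6 clutches.

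Proliferation, clock and stress genes were detected in nearly every member. In the cell cycle list, PCNA, the replication clamp (131 ± 16.9 TPM), MCM7, a helicase subunit (117 ± 13.3 TPM), and RRM2, which makes deoxynucleotides (44.4 ± 6.92 TPM), led a sum of 533 ± 54.7 TPM. All 28 circadian clock genes were at 1 TPM or more in every clutch. The repressors BHLHE40 (107 ± 8.93 TPM), NR1D1 (99.1 ± 14.4 TPM) and NR1D2 (88.9 ± 3.72 TPM) led. Heat shock genes summed to 2620 ± 167 TPM, of which the constitutive chaperone HSPA8 (2189 ± 145 TPM) with HSPE1 and HSPD1, chaperonins of the mitochondrion, held 90.4%. The cholesterol and fatty acid list summed to 237 ± 23.1 TPM, with FDPS, srebf2 and ACACA at 18.3 to 28.5 TPM. The gene that the study mutated, akr1a1a, was low at 4.42 ± 0.594 TPM (3.42 to 5.03 TPM, normalized counts 46.9 to 68.5). The related gene AKR1A1 stood at 22 ± 1.57 TPM. The INSR genes, insulin receptors, were at 21 ± 0.753 TPM (ENSDARG00000011948) and 8.88 ± 0.969 TPM (ENSDARG00000071524). The CV of the first, 2.5%, lay under the 5th percentile of the genes measured for spread below. Most of those genes have fewer counts than its mean of 1921, and so more counting error. Its excess CV, defined below, was 1.02%, and 12.8% of those genes had an excess CV of 0.

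Next, the spread between clutches was described for the 15829 genes with a mean of at least 100 normalized counts. The median CV was 8.48%, with a range of 3.46% to 22.2% between the 5th and 95th percentiles, and 61.9% of the genes had a CV under 10%. Reads are counted, so some spread comes from counting alone. An excess CV was therefore computed by taking the squared counting error from the squared CV. Its median was 6.51%, and for 2031 genes (12.8%) nothing was left over. Deep counts did not remove the excess. Genes with 100 to 300 counts had a median CV of 10.8% against a counting error of 7.47%, while genes with 10000 to 30000 counts had a median CV of 6.13% against 0.815%.

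The steadiest genes among those at 100 TPM or more were genes of signalling, energy metabolism and RNA handling. gnb1a, a G protein subunit, had a CV of 1.12%, NNT, which makes NADPH in mitochondria, 1.13%, and CS, citrate synthase, 1.59%. calm1b, a calmodulin, followed with 1.61%, PABPN1, a poly(A) binding protein, with 1.71% and HDLBP, an RNA binding protein, with 1.82%. MT-CYB, MT-CO3, SRSF11, a splicing factor, and CSNK1A1, a kinase, had CVs of 1.82% to 1.87%. In gnb1a, calm1b and PABPN1 this was no more than counting error gives, to within an excess CV of 0.0924%.

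**Figure D4:**
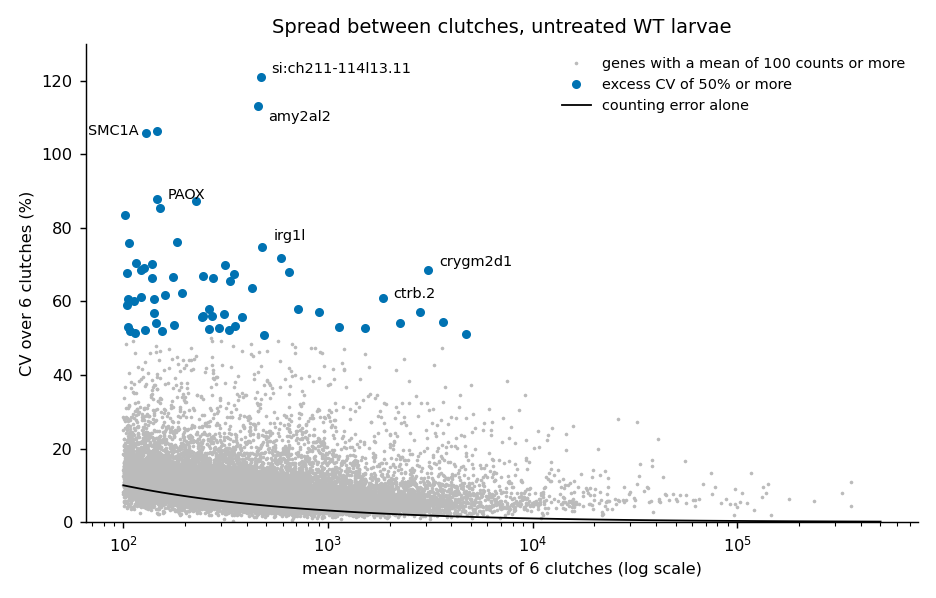
CV over the 6 untreated WT clutches (vertical axis) against the mean normalized count (log scale) of 15829 genes; the line is the CV from counting error alone. Blue points are the 62 genes with an excess CV of 50% or more, which reach 121% in si:ch211-114l13.11.

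At the other end, 507 genes had an excess CV of at least 25% and 62 genes (0.392%) of at least 50%. The 62 genes had mean levels from 0.672 to 803 TPM with a median of 11. Of these, 29 carry only a clone name or an ID, and 6 belong to any of the lists, namely 3 lens and 3 red blood cell genes. The shares of such genes among all 15829 were not counted. The lists do not hold every gene of a tissue, and 3 more hemoglobins and the digestive enzymes amy2al2 and ctrb.2 are also among the 62. Medians over whole lists lay under the spread of these 62 genes, which were picked for a high spread. Over all 15829 genes the median excess CV was 6.51%. The median excess CV of the list members was 5.08% in neurons, 5.59% in ribosomal proteins, 5.05% in the mitochondrial genome, 8.74% in fast muscle and 10.8% in liver. It was 20.9% in intestine, 21.1% in ionocytes, 27.4% in the immediate early response, 30.6% in exocrine pancreas and 35.7% in red blood cells. Thyroid (27.5%) and pituitary (20%) also lay high, but only 2 members of each had 100 counts.

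Several of the most variable genes were close to absent in some clutches. si:ch211-114l13.11 had the largest excess CV (121%), with 133, 1451, 9.77, 812, 20.4 and 390 normalized counts in clutches 1 to 6. It was high in clutches 2 and 4 and nearly lacking in clutches 3 and 5. The pancreatic amylase gene amy2al2 (113%) had 156, 7.88, 16.1, 612, 1343 and 582 normalized counts. Clutches 4, 5 and 6 were high and clutch 5 stood 170-fold above clutch 2. SMC1A, in yeast and mammals a subunit of the cohesin ring that holds chromatids together, had 2.98, 0, 273, 75.4, 138 and 384 normalized counts (106%). It was the only one of the 62 genes with a clutch at or under 3 counts. zmp:0000000737 (105%) was high in clutches 1, 2 and 4, at 141, 323 and 258 normalized counts, and stood at 14.1 to 20.4 in clutches 3, 5 and 6. How the counting split reads between amy2al2 and the other amylase genes was not tested. The 3 amylase genes, chosen after their values were seen, summed to 897, 660, 924, 1304, 2359 and 1878 normalized counts (CV 49.2%).

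PAOX, an oxidase of polyamine breakdown, showed another pattern (87.6%). It had 409 normalized counts in clutch 1 and 84.9 to 104 in the other 5. In TPM, clutch 1 stood less far apart, at 16.3 against 6.43 to 8.6 in the other 5. Without clutch 1 its excess CV was 0, so its place rests on that library alone. Likewise si:dkey-159n16.2 stood at 266 in clutch 5 and at 51.2 to 124 elsewhere. The remaining genes of the 30 most variable spread over several clutches. FADS3, a relative of the fatty acid desaturases, was at 96.3 to 549 normalized counts with clutches 3 and 5 highest. tnfrsf14, a receptor of the TNF family, was at 32.1 to 224 with clutch 2 highest. The clone-named genes si:dkey-242k1.4, si:dkey-11n14.1, si:dkey-29j8.3 and zgc:174259 were lowest in clutch 2 or 6 and had excess CVs of 63.6% to 75.7%. si:dkeyp-104f11.3, si:ch211-195h23.3 and ENSDARG00000105561 were highest in clutch 2, with excess CVs of 61.1% to 75.3%. si:dkey-19c16.1 (68.4%) was highest in clutch 6 at 244 normalized counts and lowest in clutch 2 at 24.8, and ENSDARG00000117403 (65.3%) was high in clutches 1 and 2 at 604 and 610, against 152 to 254 in the other 4.

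Most genes of the exocrine pancreas list were low in clutches 2 and 4. The exocrine pancreas list summed to 5370, 3946, 6528, 4077, 6778 and 6188 TPM in clutches 1 to 6. Clutches 2 and 4 were the lowest and clutch 5 the highest. Of its 13 genes with 100 counts, 9 were lowest in clutch 2 and 3 in clutch 4. Clutch 2 was among the lowest 2 in 11 of the 13 and clutch 4 in 12. One exception in shape was ela2l, an elastase, whose lowest clutch was clutch 3 with 622 normalized counts, against 1847 to 2933 in the other 5. Outside the list, ctrb.2, a chymotrypsinogen, was among the 30 most variable genes (60.9%) with 1831, 602, 2964, 976, 3414 and 1291 normalized counts. tmprss15, enteropeptidase, the enzyme that activates trypsinogen in the gut, had 187, 92.6, 259, 55, 88.8 and 48.1 (68%). The summed amylases, given above, were not low in clutch 4, and tmprss15 was low in clutches 4 and 6. The intestine list had 3316, 2604, 3917, 2393, 3618 and 2864 TPM, with clutches 2, 4 and 6 low. Of its 19 genes with 100 counts, 12 were highest in clutch 3 and 9 lowest in clutch 4. The liver list varied less (17583 to 21453 TPM), and 20 of its 26 genes with 100 counts were lowest in clutch 2. Over all 15829 genes, clutch 2 was the lowest in 18.9% and clutch 4 in 13.6%, and clutch 3 was the highest in 19.4%.

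Hemoglobin genes were low in clutches 1 and 2. Over 16 hemoglobin genes, chosen after their values were seen, the sum was 5889 and 6319 normalized counts in clutches 1 and 2. It was 16239, 24000, 20263 and 21883 in clutches 3 to 6. All 8 members with 100 counts had an excess CV between 46% and 57.9%, and clutches 1 and 2 were their lowest except in HBE1 ENSDARG00000087390, where clutch 3 (588) lay under clutch 2 (847). In hbae3, clutches 1 and 2 had 1128 and 1308 normalized counts and the other 4 had 3659 to 5540. The 2 HBE1 genes among the 62, beta-type globins by symbol, had 454 to 2477 (ENSDARG00000045143) and 1224 to 6855 (ENSDARG00000113599). Several other red cell genes had the same clutches lowest. alas2, the first enzyme of heme synthesis in red cells, had 196 and 179 normalized counts in clutches 1 and 2 and 355 to 491 in the others. SLC4A1 (ENSDARG00000012881), the band 3 anion exchanger, had 442 and 381 against 667 to 1105, and cahz, the red cell carbonic anhydrase, had 656 and 633 against 909 to 1085. nt5c2l1, a nucleotidase, was steady at 196 to 237. The other SLC4A1 gene (ENSDARG00000024560) was highest in clutches 1 and 2, with 234 and 272 against 145 to 185. The red blood cell list as a whole had a CV of 50.8%, which lay between 40.2% and 58% when any 1 clutch was left out. Both RHCG genes of the ionocyte list were low in the same clutches. ENSDARG00000003203 had 1790 and 1909 in clutches 1 and 2, 2442 in clutch 6 and 4253 to 4919 in clutches 3 to 5. ENSDARG00000007080 had 398 and 370 in clutches 1 and 2 and 1105 to 1278 in the others. The summed ionocyte list, which RHCG leads, was also lowest in clutches 1 and 2, at 272 and 281 TPM against 317 to 419 TPM. By single members, however, the list did not follow these 2 genes. In it, 8 of 13 genes were highest in clutch 2, against 18% of all 15829 genes. Its median gene stood at 107% and 108% of its mean in clutches 1 and 2. Both SLC4A1 genes count in both lists.

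A group of ferritin genes and anxa1b were highest in clutches 1 and 2, where hemoglobins were low. fthl28, fthl29, fthl30 and fthl31, members of the ferritin heavy chain family of iron storage proteins, summed to 2457 and 2627 normalized counts in clutches 1 and 2 and 664 to 959 in the other 4. Each had an excess CV between 67.2% and 71.7%. In contrast, the main ferritin gene fth1a stayed at 14471 to 16733 and FTH1 at 551 to 599 normalized counts. The sum over all 7 ferritin heavy chain genes ranged from 18581 in clutch 5 to 23663 in clutch 2. It includes a further gene whose values are not given here. anxa1b, an annexin, had 1234 and 1194 normalized counts in clutches 1 and 2 and 306 to 408 in the others (68%). irg1l, a relative of the immune gene that makes itaconate, had 726, 988, 612, 304, 205 and 36.1 (74.6%). plekhs1.1 (84.9%) had 250, 346, 166, 82.6, 48.9 and 11, si:ch211-153b23.3 (87%) had 377, 516, 269, 115, 72.8 and 4.01, and si:ch211-153b23.4 (61.9%) had 312, 331, 246, 138, 110 and 28.1. In irg1l and these 3 genes clutch 2 was the highest and clutch 6 the lowest.

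**Figure D5:**
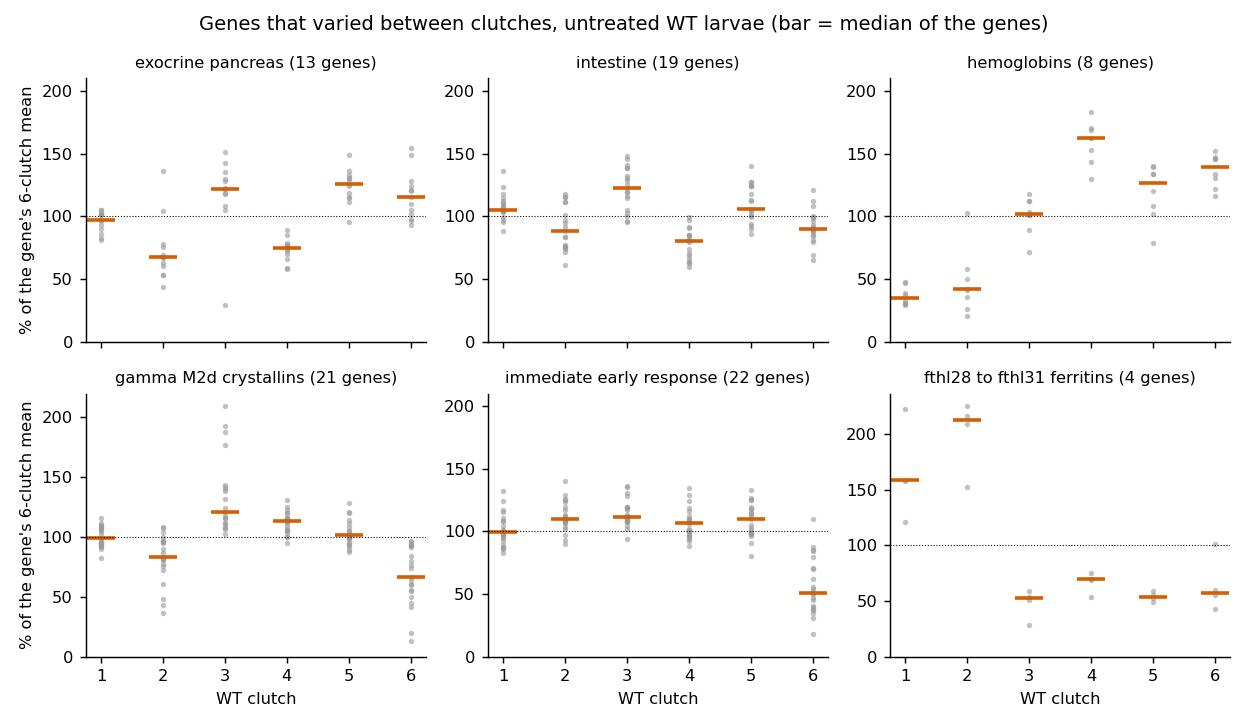
Normalized counts of single genes as a percentage of the gene's mean over the 6 untreated WT clutches (points), with the median of the genes (bars), by clutch. Hemoglobins are low and the fthl28 to fthl31 ferritins high in clutches 1 and 2, and 21 of 22 immediate early genes are lowest in clutch 6.

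In the lens, single genes of 1 family differed in spread. The 21 gamma M2d crystallin genes are near copies, and their sum ranged from 63049 normalized counts in clutch 6 to 109535 in clutch 3 (CV 19.4%). Members ranged from crygm2d13 with an excess CV of 8.4% (6077 to 7543 normalized counts) to crygm2d1 with 68.5% (3263, 1325, 6448, 3082, 3950 and 416). crygm2d1, crygm2d6 (57.2%) and crygm2d21 (57.1%) were low in clutches 2 and 6 and highest in clutch 3. Since reads of near copies can be split between them in counting, the values of single members are uncertain, while the sum depends less on that split. The beta crystallins CRYBB1 and cryba1l1 varied less, with excess CVs of 9.11% and 11.1%.

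Clutch 6 stood apart in rapidly induced genes. The immediate early list, transcription factors and feedback genes that cells switch on within minutes of a stimulus, summed to 715, 796, 809, 737 and 812 TPM in clutches 1 to 5 and to 378 TPM in clutch 6. Of its 22 genes with 100 counts, 21 were lowest in clutch 6 (95.5%), while clutch 6 was the lowest in 23.7% of all 15829 genes. The median gene of the list had 51.1% of its mean there. egr1, a zinc finger factor, had 1807 normalized counts in clutch 6 and 3907 to 4601 in the others. DUSP1, a phosphatase that turns MAP kinases off, had 995 against 1932 to 2790, and BTG2, an antiproliferative gene, had 930 against 2476 to 3446. SOCS3 (ENSDARG00000025428), an inhibitor of cytokine signalling, had the largest spread of the list (41.6%), with 188 in clutch 6 and 1068 to 1424 in the others. Without clutch 6, the CV of the summed list was 5.78%, in place of 23.5%. The glucocorticoid and fasting list was also lowest in clutch 6, with 420 TPM against 629 to 787 TPM. There PCK1, the gluconeogenic enzyme, had 4104 normalized counts against 7629 to 11635, and KLF9, a glucocorticoid target, 409 against 707 to 1545. FKBP5, a chaperone of the glucocorticoid receptor, was at 1323 in clutch 6, close to the 1296 of clutch 1, so clutch 6 did not lie apart in it. tsc22d3, another glucocorticoid target, averaged 94.1 ± 14.9 TPM.

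Clutch 6 was also the lowest for 38 of 46 proteasome genes, 64 of 93 nuclear respiratory chain genes and 10 of 15 pigment cell genes, and the highest for 14 of 26 neuron genes. These differences were small, with median members at 86.2%, 91.4%, 84.9% and 105% of their means. Over all 15829 genes, clutch 6 was the highest in 21.2%. Whether the state of the larvae at collection, the time of day or the handling of this pool differed was not tested, and RNA quality values were not given in the sources used here. Its depth was 19878464 counts, and the other clutches had 19923333 to 20174607.

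The hatching enzyme gene he1.1, a protease of the hatching gland that dissolves the egg envelope, was still present at this age (66.7%). It had 169, 426, 105, 387, 31.8 and 347 normalized counts in clutches 1 to 6, so clutches 2, 4 and 6 were high. Clutches 2 and 4 were also the lowest for the exocrine pancreas list, while clutch 6 was not among its low clutches. The intestine list was low in clutches 2, 4 and 6, with 2393 to 2864 TPM against 3316 to 3917 TPM.

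The spread of the same genes was then read in the other groups, in which they had not been chosen. The ACR-treated samples carry the same replicate numbers as the untreated ones, though the labels do not say that a number marks a shared clutch. Of the 62 genes, 39 also had an excess CV of at least 50% among the 6 ACR-treated samples (52% of the 75 such genes there, 62.9% of the 62). In the 6 akr1a1a-/- samples 12 did (15.4% of 78, 19.4% of the 62). Among all genes with a mean of 100 counts, such genes numbered 75 of 15920 after ACR and 78 of 15724 in the akr1a1a-/- samples. A mean of 100 counts, which the measure needs, was reached by 57 of the 62 genes in the ACR-treated samples and by 39 in the akr1a1a-/- samples, so the others could not meet it there. The highest ACR-treated sample had the same number as the highest untreated clutch for 43 of the 62 genes, and the lowest for 45. Over all 15829 genes this held for 36.9% and 37%. In the akr1a1a-/- samples it held for 11 and 16 of the 62 genes, and for 18.8% and 18.6% of all genes. SMC1A had 1, 0, 280, 61.2, 126 and 345 normalized counts in ACR-treated samples 1 to 6, against 2.98, 0, 273, 75.4, 138 and 384 in untreated clutches 1 to 6. In both groups samples 1 and 2 were near 0. amy2al2 had 6, 5.9, 8, 610, 1600 and 663 normalized counts in ACR-treated samples 1 to 6, against 156, 7.88, 16.1, 612, 1343 and 582 in untreated clutches 1 to 6, so that number 1 differed. In crygm2d1, samples 2 and 6 were low in both groups, with 1142 and 387 normalized counts after ACR and 1325 and 416 in untreated larvae. hbae3 did not keep its order, since the ACR-treated samples 1 and 6 were the highest (3623 and 4734 normalized counts), while untreated clutches 1 and 2 were the lowest (1128 and 1308). For PAOX, the ACR-treated samples lay between 79.2 and 108 normalized counts and the untreated clutches between 84.9 and 409. In the immediate early list, ACR-treated sample 6 was the lowest of its group in 17 of the 22 genes with 100 counts, while it was the lowest in 25.5% of all 15829 genes. Untreated clutch 6 was the lowest in 21 of the 22. egr1 had 2719 normalized counts in ACR-treated sample 6 and 3111 to 4287 in the other ACR-treated samples, a smaller gap than in untreated larvae, where clutch 6 had 1807 and the others 3907 to 4601. In the glucocorticoid and fasting list, sample 6 was the lowest in 6 of 12 genes after ACR and clutch 6 in 8 of 12 in untreated larvae. The 10 steadiest genes were picked for a small CV in untreated larvae, 1.12% to 1.87%. Their CVs were 2.61% to 8.16% after ACR and 3.17% to 5.89% in the akr1a1a-/- samples.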

How the data were processed

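RNA-Seq of the 6 untreated wild-type samples was used, with the 12 other samples only for the spread of single genes. The submitters' processing notes name Trim Galore 0.6.4, kallisto 0.4.6 and the build GRCz11, without their roles. The authors deposited TPM values per gene, and estimated counts per gene, not normalized, of which 45.3% to 45.9% per sample were not whole. Both list 32520 Ensembl IDs, and 29201 had a symbol in a name table, where many zebrafish genes carry human symbols.

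Counts were rounded to whole numbers for TMM factors (edgeR 4.0.16) and for DESeq2 1.42.0 size factors, both in R 4.3.3. All else was computed in Python 3.11.15. Normalized counts are counts over TMM-scaled totals, set in every group to the mean TMM-scaled total of the untreated samples. TMM factors were computed within each group, so no TMM scaling was applied between groups. The excess CV is the square root of the squared CV less 1 over the mean count, and 0 where negative. It was checked on simulated counts with a known spread, where large spreads came out somewhat low. The libraries had no molecular identifiers, and intervals of counting error therefore understate the true error. No test of a difference between groups was run. Dixon's limit, described below, was used only to flag untreated clutches that lay far from the rest. Treated and mutant samples were set beside the untreated ones, as a description, only for the spread of single genes and for which sample number was highest or lowest.

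Gene lists (514 of 565 symbols found, plus symbol patterns) and the named genes were chosen with earlier results of these data known. Named are the 30 genes with the highest mean TPM, the top 3 of each list, the 30 with the largest excess CV at a mean of 100 counts or more, the 10 with the smallest CV at 100 TPM or more, akr1a1a and the insulin receptors. Other list members are named for their place in the list. Some genes that meet these rules are not reported here. Hemoglobin, ferritin, crystallin, amylase and vitamin D genes and other genes of the 62 most variable were chosen after their values were seen.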

Additional observations from a re-analysis of the deposited data

Results flagged for a closer look

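Values of the 6 untreated clutches in which the highest or lowest clutch lay far from the rest are given here, where the gap to the nearest other clutch, as a share of the whole range, passed Dixon's 95% limit for 6 samples. Chance alone gives this in about 1 of 20 groups of normally distributed, independent values that were not chosen by their spread. It was met by 14 of the 257 values examined (5.45%). Among these, 30 genes were examined because of their large spread and 8 because of their small CV. Some sums were chosen after the values were seen, and several values share genes. The 1 in 20 therefore does not hold for the whole set, and no conclusion is drawn from the share.

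Clutch 6 was low in the immediate early response list (378 TPM, next 715), in egr1 (40.7 TPM, next 84.3), in BTG2 (23.1 TPM, next 60.8), and in the summed normalized counts of the egr factors (2350, next 4970) and of the fos and jun factors (3827, next 6041). These values share genes, and the egr and fos and jun sums were chosen after the values were seen. Clutch 6 was also low in the pigment gene DCT (119 TPM, next 143) and in the phosphate transporter SLC20A1 (49 TPM, next 58.1).

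PAOX was high in clutch 1 (409 normalized counts, next 104) and si:dkey-159n16.2 in clutch 5 (266, next 124). Both were examined because they were among the 30 most variable genes. The remaining values were si:dkey-151g10.6, high in clutch 3 (5849 TPM, next 4870), ALPL, high in clutch 2 (25.2 TPM, next 20.7), clec14a, high in clutch 1 (12.3 TPM, next 10.1), a COL2A1 gene, low in clutch 3 (224 TPM, next 266), and ftr82, low in clutch 4 (16.5 TPM, next 20.6).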

How the results depend on the processing

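No paired analysis was possible because no result comes from a test of a difference between groups. Shares of the RNA depended on the length scaling. By counts in place of TPM, the top 10 genes held 10.8% (16.5% by TPM), 639 genes made up 50% (162.5 by TPM) and the fast muscle list held 9.16% (10.3% by TPM). The fast muscle list then ranked before the mitochondrial genome (5.36%) and ribosomal protein (5.04%) lists. The lens list (1.27%) then fell under the liver list (1.59%). Without the genes of the mitochondrial genome list, the top 10 genes held 12.5%. The median CV of 8.48% was 10.8% with genes of at least 10 counts, 6.23% with at least 1000 counts and 9.23% on TPM. The 62 genes with an excess CV of 50% or more became 330 with at least 10 counts and 8 with at least 1000. Of the 30 most variable genes, 14 remained by DESeq2's variance-stabilized SD, 19 by edgeR's tagwise dispersion, 15 by the SD of log2(TPM + 1), 19 by that of log2(TPM + 0.1) and 4 with at least 10 counts. Only 2 remained in all 12 settings. DESeq2 size factors and totals without TMM both left 62 genes, and a minimum of over 3 counts in every clutch, added after the data were seen, left 61.

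With each clutch left out, the genes at 1 TPM or more in the clutches kept numbered 20658 to 20711, the top 10 share was 16.4% to 16.6%, the genes for 50% of TPM 160.6 to 164.2, and the muscle share 10.1% to 10.5%. The median CV was 7.78% to 8.70%, lowest without clutch 6, the variable genes numbered 45 to 73, fewest without clutch 2, and 21 to 25 of the 30 remained.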

Other observations

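Some values outside the lists and patterns above are given without explanation, chosen after they were seen. Among the 62 most variable genes were a pair of vitamin D genes. CYP24A1, which breaks active vitamin D down, had 715 and 876 normalized counts in clutches 1 and 2 and 263 to 417 in the other 4. CYP27B1, which makes active vitamin D, had 23 to 73.4 in clutches 1, 2 and 6 and 133 to 183 in clutches 3 to 5. Clutches 1 and 2 were thus high in CYP24A1 and low in CYP27B1, while clutch 6 was high in neither. SLC15A2, a peptide transporter, had 54.2 normalized counts in clutch 2 and 210 to 451 in the others. myhc4, a myosin heavy chain, had 56.9 in clutch 6 and 249 to 566 in the others.

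Among class I MHC genes, mhc1zea and mhc1zba ran against each other. mhc1zea had 610, 378, 754, 330, 658 and 292 normalized counts in clutches 1 to 6, and mhc1zba had 534, 886, 479, 847, 606 and 1073. The clutches that were high in one were low in the other, while mhc1haa stayed at 192 to 238. TG, thyroglobulin, had 1057, 593, 1016, 490, 1204 and 488 normalized counts, so that clutches 2, 4 and 6 were low. Cell cycle genes were highest in clutch 3 for 15 of 18 genes with 100 counts and lowest in clutch 2 for 10. Over all 15829 genes with 100 counts, clutch 3 was the highest in 19.4% and clutch 2 the lowest in 18.9%.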
